A study of Mus musculus with 37 samples.

Results

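The libraries described are the 20 at the ends of a ranking of all 37 lung libraries of the study by the ratio of 2 clock genes, Arntl and Dbp. Counts were scaled to counts per 1000000 of each library's total (CPM), and the index of a library was log2((Arntl CPM + 1)/(Dbp CPM + 1)). The libraries were selected on these measured Arntl and Dbp values: the 10 of highest index and the 10 of lowest index formed the ends, and the other 17 formed the middle. Because of this choice, every contrast between them is given as a description without a test, and Arntl and Dbp were left out of all gene results.

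The study measured RNA in the lungs of C57BL/6 mice, a common inbred laboratory strain, 1 library per mouse, after real or mock irradiation at an accelerator facility. The 7 mock mice received 0 Gy. The silicon group (7 mice) received 0.75 Gy of silicon ions at 300 MeV per nucleon, the GCR group (7 mice) 0.75 Gy of a 5-ion beam that simulates galactic cosmic radiation, and the gamma group (5 mice) 0.75 Gy of caesium gamma rays. A further 5 mock mice (mock + NR) and 6 silicon mice (silicon + NR) had nicotinamide riboside (NR), a precursor of the coenzyme NAD, at 12 mM in their water from before the irradiation onward. The sources used here give no age, no time after irradiation and no hour of dissection, so the hour cannot be told apart from the group. The ends are therefore called Arntl-high and Dbp-high rather than early and late. These names refer to the ratio and not to the level of either gene alone.

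The protein of Arntl, BMAL1, pairs with CLOCK or NPAS2 and binds E-box letters in the promoters of the Per, Cry, Nr1d, Bhlhe and Ciart genes, whose products then repress the pair or the Arntl gene. The NR1D proteins repress Arntl, Npas2 and Nfil3 through a response element that the activating ROR proteins share. Dbp, Tef and Hlf are output factors that bind the D-box, where NFIL3 competes with them. In mouse tissues, lung included, Arntl and Npas2 are known to be high when Dbp, Tef and Hlf are low, and the reverse.

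The index ran from 2.54 in GCR replicate 6 to -4.06 in silicon + NR replicate 6, with a median of 0.02. Arntl itself ranged from 14.3 to 38.8 CPM (median 28.4) in the Arntl-high end and from 3.34 to 9.44 CPM (median 5.35) in the Dbp-high end. Dbp ranged from 1.90 to 17.3 CPM (median 10.3) in the Arntl-high end and from 32.96 to 80.6 CPM (median 62.2) in the Dbp-high end. In the middle, Arntl ranged from 6.62 to 36.7 CPM (median 20.1) and Dbp from 11.1 to 75.3 CPM (median 24.3). GCR replicates 6, 2 and 5 of the Arntl-high end had Arntl below the middle median, at 15.8, 14.3 and 18.3 CPM. Their Dbp was 1.90, 2.24 and 9.71 CPM. The upper limit fell where the ranking was continuous, with silicon replicate 6 just inside at 0.83 and mock replicate 7 just outside at 0.82. The lower limit separated gamma replicate 1 at -2.47, inside, from silicon + NR replicate 4 at -2.31, outside. The largest gap between neighbours, 1.24, lay 1 place higher, between silicon replicate 5 at -1.06 and silicon + NR replicate 4, so 11 libraries stood apart at the low side.

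**Figure D1:**
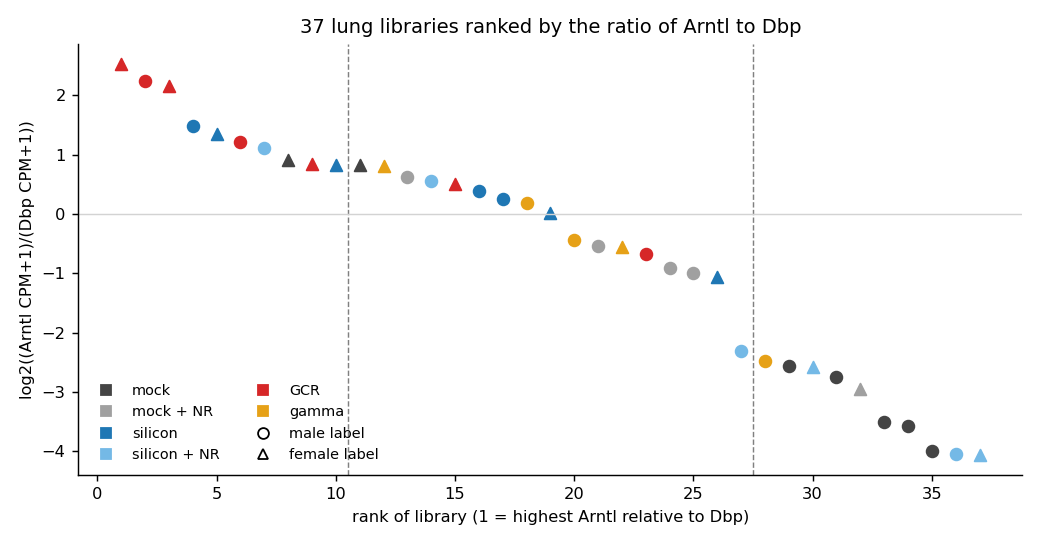
Index of each of the 37 libraries, log2 of the Arntl to Dbp ratio, against its rank, with group by colour and labelled sex by symbol. Dashed lines mark the limits of the 10 highest and 10 lowest libraries, and 11 libraries lie below the gap under -1.06.

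The groups fell unevenly over the ranking. Of the 7 GCR libraries, 5 were in the Arntl-high end, including the first 3 places, and 2 in the middle, with none in the Dbp-high end. Their index was 1.26 ± 1.15 (mean ± SD, n = 7). Silicon without NR placed 3 libraries in the Arntl-high end, 4 in the middle and none in the Dbp-high end, at 0.47 ± 0.87 (n = 7). Mock was split, with 5 of 7 libraries in the Dbp-high end, 1 in the middle and 1 in the Arntl-high end, at -2.09 ± 2.08 (n = 7). Of the 3 groups, mock had the widest spread.

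The split within mock followed the sex labels, and also the runs of numbers in the sample titles, which are separate for the sexes. The 5 male mock libraries lay between -3.999 and -2.56 and were all in the Dbp-high end, while the 2 females were at 0.91 and 0.82. In the mock + NR group the order of the sexes was the other way round, with 4 males between -0.998 and 0.62 and the 1 female at -2.96. Over all groups, 4 of 22 male and 6 of 15 female libraries were in the Arntl-high end, and 7 male and 3 female libraries in the Dbp-high end.

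Silicon + NR spread widely, from -4.06, the lowest of all libraries, to 1.11 (-1.89 ± 2.23, n = 6), with 1 library in the Arntl-high end and 3 in the Dbp-high end. Its male replicates 1 and 2, adjacent in the number of their sample titles, were at 0.55 and 1.11. Male replicates 3 and 4, adjacent at higher title numbers, were at -4.04 and -2.31, and the females at -2.58 and -4.06. What these numbers stand for is not stated, and their part was not tested. Mock + NR was at -0.96 ± 1.29 (n = 5) with 1 library in the Dbp-high end, and gamma at -0.49 ± 1.23 (n = 5), also with 1 there. Neither had a library in the Arntl-high end. Summed over radiation without NR, 8 of 19 libraries were Arntl-high and 1 Dbp-high. Among libraries with NR, 5 of them unirradiated, 1 of 11 was Arntl-high and 4 were Dbp-high. Mock without NR, in neither pool, had 1 and 5 of 7. The pools differ in radiation as well as in NR. These counts describe the ranking and were not tested.

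Library quality was not even over the ends. Total counts ran from 9485197 to 66381526 (median 27214478.5) in the Arntl-high end and from 18232729 to 35226201 (median 29379936.5) in the Dbp-high end. Rn45s, the ribosomal RNA precursor, exceeded 100000 CPM in 4 libraries, of which 3 were Arntl-high (all GCR, including the shallowest) and 1 was Dbp-high (mock). Acta1, skeletal muscle actin, exceeded 1000 CPM in 13 libraries, 3 Arntl-high, 6 in the middle and 4 Dbp-high. The lung markers Ager (at least 36.9 CPM) and Sftpc (at least 325 CPM) were present in every library of both ends. A library labelled female, gamma replicate 5 of the middle, had 3.73 CPM of Xist and 87.6 CPM of Ddx3y, against its label.

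Of 16975 genes, 6 separated the ends completely, 1 higher and 5 lower in the Arntl-high libraries, and 5 of the 6 belonged to 18 core clock genes listed without Arntl and Dbp. Genes without overlap made up 0.0353% of all genes tested, 0.00589% for higher and 0.0295% for lower. With TMM library sizes and the same libraries at the ends, only Hlf and Npas2 of the 6 stayed free of overlap. Ciart, Tef, Bhlhe41 and Lonrf1 then overlapped, and Lefty1, Nr1d2 and Tspan4 did not. Differences below are means of log2(CPM + 1), Arntl-high minus Dbp-high, so they understate changes of low genes. Among the 18 core clock genes, 3 were higher and 15 lower, with a median difference of -0.38, beside a median of -0.06 over all genes tested, of which 6400 were higher and 10575 lower.

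Npas2, the partner of BMAL1 that can stand in for CLOCK (chr1:39193731-39363236 in mm10, GENCODE M21), was the activator that separated the ends. It ranged from 9.91 to 27.7 CPM (median 14.1) in the Arntl-high libraries and from 1.37 to 9.24 CPM (median 4.55) in the Dbp-high ones. Its means of 4.01 ± 0.46 and 2.45 ± 0.64 (SD, n = 10 each) differed by 1.55. Clock itself differed by 0.34 with overlap, from 43.4 to 83.6 CPM (median 60.5) against 35.3 to 56.1 CPM (median 45.0). Of all 100 pairs of an Arntl-high and a Dbp-high library, the Arntl-high one had more Clock in 85. The other 3 activators, Arntl2, Rora and Rorb, had differences between -0.31 and -0.12 and overlapped throughout.

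All 10 repressors were lower in the Arntl-high libraries by their means, with a median difference of -1.01, and 2 of them, Ciart and Bhlhe41, did not overlap. The sign was not stable for Cry1, which was higher by 0.04 under TMM library sizes, or for Bhlhe40, which was higher by 0.01 without the GCR libraries. Ciart, a repressor of the CLOCK and BMAL1 pair (chr3:95878503-95882251), ranged from 2.80 to 11.5 CPM (median 5.95) against 11.5 to 33.6 CPM (median 20.1). The ends met within 0.0027 on the log2 scale, so the separation of Ciart rests on that margin, beside a mean difference of -1.47. Bhlhe41, which competes at E-boxes (chr6:145858243-145865558), ranged from 7.40 to 16.0 CPM (median 11.6) against 19.1 to 35.7 CPM (median 24.1), a difference of -0.98.

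The promoters of these 2 genes are shown because both hold the E-box letters CACGTG, a palindrome, in capitals. Sequences are RefSeq promoters on GRCm38.p6, 250 bases before to 50 after the start, written 5′ to 3′ on the gene's strand, here the minus strand for both. The Ciart window is chr3:95882179-95882478, with E-boxes whose first bases lie 116, 58 and 44 bases before the start, and the Bhlhe41 window is chr6:145865371-145865670, with 1 that lies 153 bases before it.
Ciart: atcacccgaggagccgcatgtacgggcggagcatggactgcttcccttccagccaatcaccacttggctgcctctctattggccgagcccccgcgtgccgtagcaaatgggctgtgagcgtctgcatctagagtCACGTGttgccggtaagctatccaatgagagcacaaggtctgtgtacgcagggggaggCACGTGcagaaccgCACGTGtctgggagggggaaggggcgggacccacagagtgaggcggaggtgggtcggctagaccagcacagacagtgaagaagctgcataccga
Bhlhe41: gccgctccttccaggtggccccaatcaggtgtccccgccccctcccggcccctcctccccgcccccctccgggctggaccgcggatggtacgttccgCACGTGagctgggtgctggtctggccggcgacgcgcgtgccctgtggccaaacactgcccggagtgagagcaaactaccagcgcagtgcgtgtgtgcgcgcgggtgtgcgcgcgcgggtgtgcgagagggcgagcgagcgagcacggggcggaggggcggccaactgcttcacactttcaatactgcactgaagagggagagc

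Nr1d2, Per3 and Per2 overlapped in few pairs. Nr1d2, a nuclear receptor that represses Arntl, ranged from 38.8 to 94.9 CPM (median 58.5) against 91.9 to 157 CPM (median 133), a difference of -1.13 with the Arntl-high library higher in 1 of 100 pairs. Per3 ranged from 29.7 to 96.7 CPM (median 54.8) against 92.0 to 199 CPM (median 119), a difference of -1.21 with 2 such pairs. Per2, a core partner of the CRY repressors, ranged from 10.4 to 47.8 CPM (median 26.3) against 44.8 to 88.0 CPM (median 60.7), a difference of -1.15 with 4 such pairs. Nr1d1 overlapped more, at -1.04 and 12 pairs. The ends overlapped in each of these 4 genes, most in Nr1d1.

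The remaining repressors overlapped widely between the ends. Cry1 differed by -0.04 (46 of 100 pairs higher), Per1 by -0.39 (42 pairs), Cry2 by -0.28 (24 pairs) and Bhlhe40 by -0.37 (32 pairs). Per1, which glucocorticoids and other stimuli also induce, spread from 6.33 to 71.3 CPM within the Arntl-high libraries alone. Its difference depended on the groups, at -1.15 without the GCR libraries, -1.07 with values centred on the group means and -0.03 without the mock libraries.

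**Figure D2:**
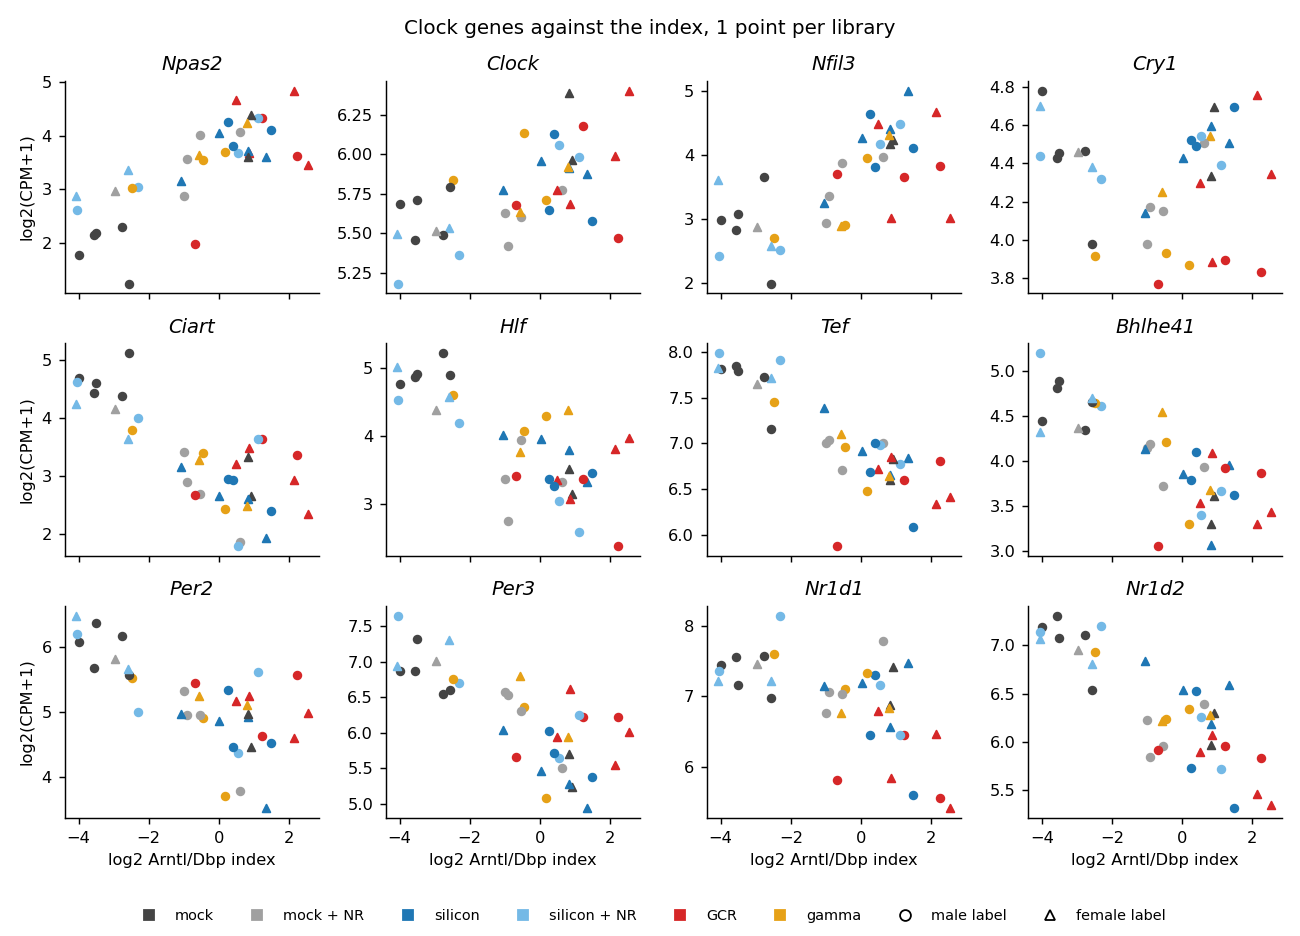
Log2(CPM + 1) of 12 clock genes against the index in each of the 37 libraries, with group by colour and labelled sex by symbol. Npas2 and Nfil3 lie high at the right side and Ciart, Hlf, Tef, Bhlhe41, Per3 and Nr1d2 high at the left, while Cry1 spreads evenly.

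The output factors gave the widest gap. Hlf (chr11:90336536-90390895) ranged from 4.24 to 14.8 CPM (median 9.22) in the Arntl-high libraries and from 20.01 to 36.4 CPM (median 27.4) in the Dbp-high ones, a difference of -1.48 with an empty interval of 0.41 between the ends. Tef (chr15:81802421-81826863) ranged from 67.1 to 115 CPM (median 104) against 141 to 253 CPM (median 215), a difference of -1.08 with an interval of 0.30. Under TMM library sizes Hlf kept its separation and Tef overlapped. Both encode PAR bZIP factors of the same family as Dbp. Nfil3, their competitor, moved the other way, from 7.05 to 31.2 CPM (median 17.1) against 2.96 to 11.6 CPM (median 6.21), a difference of 1.17 with 94 of 100 pairs higher.

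The promoter of Tef at the first of its 2 listed starts is shown for its E-box, whose first base lies 127 bases before the start (chr15:81802423-81802722, plus strand). That of Per3 is shown for its D-boxes TTATGTAA, the letters that DBP, TEF and HLF bind, 205 and 158 bases before the start (chr4:151044616-151044915, minus strand). Capitals mark the motifs.
Tef: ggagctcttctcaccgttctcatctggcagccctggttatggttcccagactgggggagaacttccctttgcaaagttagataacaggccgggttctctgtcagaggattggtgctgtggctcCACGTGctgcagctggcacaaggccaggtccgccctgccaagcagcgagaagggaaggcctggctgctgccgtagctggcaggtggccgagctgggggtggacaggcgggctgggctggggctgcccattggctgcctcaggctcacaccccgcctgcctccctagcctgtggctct
Per3: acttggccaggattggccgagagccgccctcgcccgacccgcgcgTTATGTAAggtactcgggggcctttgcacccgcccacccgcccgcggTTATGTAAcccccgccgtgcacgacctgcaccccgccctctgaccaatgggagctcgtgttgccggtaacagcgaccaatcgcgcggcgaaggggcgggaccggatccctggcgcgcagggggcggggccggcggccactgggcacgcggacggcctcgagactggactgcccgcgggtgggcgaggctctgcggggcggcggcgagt

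The promoter table matched 16 of the 18 core clock genes. At any listed start, 5 of the 16 held the E-box (Per1, Cry1, Ciart, Bhlhe41 and Tef), beside 7.15% of 32851 mouse promoters. The percentages here count single promoters and the clock counts genes, so a gene with several starts has more chances to hold a motif. Per3 alone held the D-box, searched on both strands, against 0.938% of all promoters. The letters AGGTCA, the core of the element that the NR1D and ROR proteins share, were in Clock, Per1, Nr1d2 and Nfil3, against 16.3% of all promoters. Cry1 and Per1 hold the E-box letters and overlapped between the ends, and the windows of Npas2 and Hlf, which separated them, hold none of the 3 motifs.

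Outside the clock list, Lonrf1, a RING finger gene (chr8:36216064-36249516), was the gene without overlap. It ranged from 9.38 to 12.8 CPM (median 12.5) against 13.3 to 20.1 CPM (median 16.8), a difference of -0.46. Its middle libraries, from 5.23 to 16.1 CPM (median 12.3), reached below both ends, so it did not run in step with the index. Genes ordered one way in at least 95 of 100 pairs numbered 18, or 0.106% of those tested, and 8 of these were core clock genes.

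**Figure D3:**
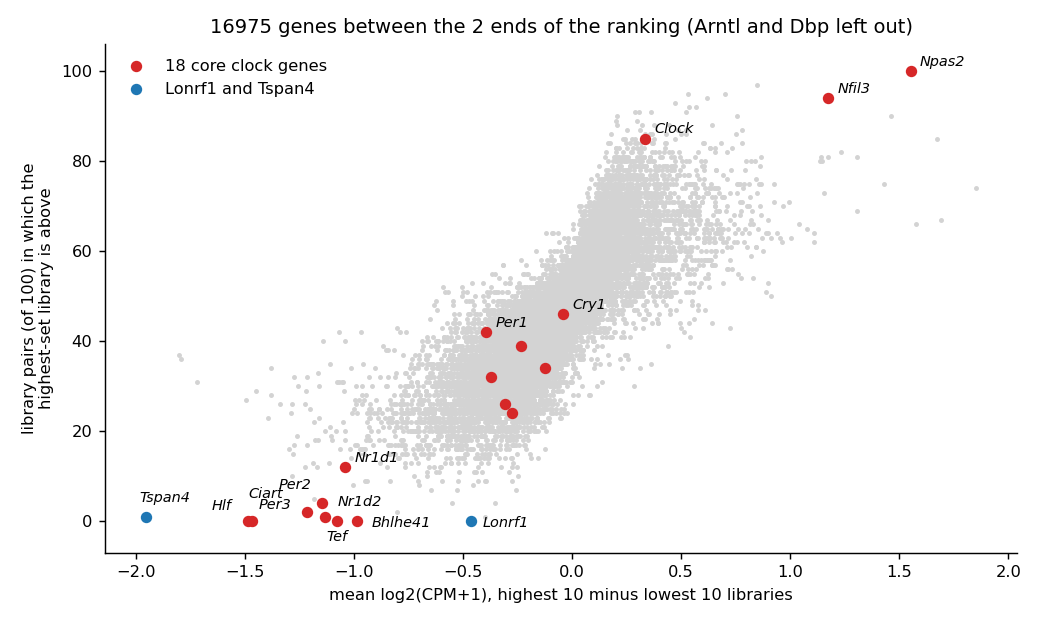
Each of 16975 genes by its mean log2(CPM + 1) difference between the ends and by the share of 100 library pairs in which the Arntl-high library is higher. Npas2 at 100 pairs and Hlf, Ciart, Tef, Bhlhe41 and Lonrf1 at 0 pairs are the 6 genes without overlap.

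Genes that are rhythmic in most mouse organs were partly ordered by the index. Of 10 such genes, 2 were higher and 8 lower in the Arntl-high libraries, with a median difference of -0.47 and no gene free of overlap. Tspan4, a tetraspanin gene, had the lowest difference of all genes tested, -1.95, from 0.53 to 25.03 CPM (median 14.1) against 22.7 to 96.5 CPM (median 40.7), with 1 of 100 pairs higher. Cys1, a ciliary membrane gene, differed by -1.18 (5 pairs) and Wee1, a kinase that delays mitosis, by -0.83 (9 pairs). Tsc22d3 (-0.75), Coq10b (-0.61), Por (-0.33), Usp2 (-0.21) and Nampt (-0.14) overlapped more, and Tfrc (0.27) and Lonrf3 (0.23) were higher. The list of 11 kinases, ubiquitin ligases and other regulators of the clock proteins, among them the deubiquitinase Usp2 and the PER and CRY partner Timeless, lay between -0.32 (Timeless) and 0.17 (Csnk2a1), 3 higher and 8 lower.

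Large differences also arose for genes that mark sex and for genes of other cell types, all with overlap. Xist differed by 1.69, Eif2s3y by -1.80 and Ddx3y by -1.79. The Arntl-high end held 6 females and 4 males by label, and the Dbp-high end 3 females and 7 males. The secreted factors Cxcl5, a neutrophil chemokine, and Spon2 were higher by 1.67 and 1.46, in 85 and 90 of 100 pairs. All 17 B cell genes tested were higher (median 0.80, Ms4a1 1.11) and all 21 T cell genes too (median 0.66, Ccr7 1.08). Summed B cell levels ran from 44.7 to 3962 CPM (median 250.0) in the Arntl-high libraries and from 75.2 to 496 CPM (median 131) in the Dbp-high ones. Summed T cell levels ran from 47.0 to 1734 CPM (median 103) against 49.3 to 170 CPM (median 92.6), so the highest Arntl-high libraries carried the difference.

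Cell cycle genes were higher for 31 of 32 (median 0.56), among them Top2a, a topoisomerase of dividing cells, at 0.87 and 81 of 100 pairs. Their summed levels ran from 145 to 907 CPM (median 298) against 182 to 279 CPM (median 230). In contrast, all 14 heart muscle genes were lower (median -1.04, Nppa -1.72, Myh6 -1.45). Summed heart muscle levels ran from 359 to 7749 CPM (median 1988) against 761 to 13725 CPM (median 4472). All 24 endothelial genes were lower too (median -0.58, Ramp2 -1.18), as were all 17 of alveolar type 1 cells, the flat gas exchange cells (median -0.53, Ager -1.16), and all 12 of smooth muscle (median -0.43). Fewer cells of a type and less RNA per cell cannot be told apart in these bulk libraries.

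The structural and secretory lung lists had medians below the -0.06 of all genes tested, except the ciliated cell list. For every count of lower genes here, the background is 10575 lower of 16975 genes tested. Alveolar type 2 genes, those of the surfactant cells, were lower for 14 of 16 (median -0.39, Sftpc -1.22), club cell genes for 13 of 15 (median -0.31), fibroblast genes for 16 of 18 (median -0.29, Inmt -1.23), mesothelial genes for 11 of 12 (median -0.38) and ciliated cell genes for 16 of 24 (median -0.04). Neutrophil genes were lower for all 11 tested (median -0.21), macrophage genes for 10 of 17 (median -0.13), fat genes for 7 of 12 (median -0.15) and squamous epithelium genes for 13 of 18 (median -0.17). Skeletal muscle genes were higher for 13 of 21 (median 0.12). No gene of these cell type lists was free of overlap, and their part in the clock gene differences was not tested.

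The medians of the stress and metabolic lists lay between -0.15 and 0.21, apart from 2 small lists. Immediate early genes were higher for 17 of 23 (median 0.20, Nr4a1 0.71), ribosomal protein genes for 27 of 30 (median 0.21, Rplp1 0.63), glucocorticoid response genes for 7 of 18 (median -0.08), heat shock genes for 7 of 15 (median -0.01), p53 targets for 8 of 20 (median -0.15) and NAD metabolism genes for 3 of 15 (median -0.13). Both cold-inducible RNA-binding genes, Rbm3 (-0.71) and Cirbp (-0.36), were lower. Small and precursor RNA genes were higher for 4 of 8 tested (median 0.36, Snora81 1.43). None of these was free of overlap.

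The contrast was drawn again without the libraries in doubt, with the ranks taken anew. Without the 13 muscle-rich libraries, with 6 libraries per end, the difference was 1.47 for Npas2, -1.47 for Hlf, -1.21 for Ciart and -1.26 for Tef, and all 6 genes were again free of overlap, among 74 in this smaller contrast. Without the 4 libraries high in Rn45s it was 1.49, -1.23, -1.51 and -1.13, and 5 of the 6 genes were again among 8 without overlap. Other clock genes moved more, with Per1 at -0.82 and Nr1d1 at -0.69 without the high-Rn45s libraries, and Bhlhe40 at -0.68 and Per1 at -0.22 without the muscle-rich ones. Without the mock libraries, with 8 per end, 3 of the 6 genes (Npas2, Bhlhe41 and Tef) were free of overlap, and the difference was 1.004 for Npas2, -1.09 for Hlf, -0.91 for Ciart and -1.03 for Tef. Without the GCR libraries it was 1.5005 for Npas2, -1.39 for Hlf, -1.80 for Ciart, -0.95 for Tef and -0.41 for Nr1d1, with 5 of the 6 genes free of overlap. Both of these alternatives were added after the data were seen. With males only, an alternative added after the data were seen, it was 1.97, -1.84, -1.86 and -1.01. When index and gene values were centred on the group means, the 6 genes all overlapped, with Npas2 at 1.16 (93 of 100 pairs), Ciart at -1.17 (6 pairs), Hlf at -0.91 (17 pairs), Tef at -0.70 (8 pairs) and Nr1d2 at -0.84 (1 pair). Uts2 was then the 1 gene free of overlap.

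The 17 middle libraries allowed a test on libraries that did not form the ends. For each gene, edgeR's quasi-likelihood test fitted a slope of log2 expression on the index with sex as a term. No gene of 16975 passed a Benjamini-Hochberg adjusted p of 0.05 (0% called, smallest adjusted p = 1), 113 had an unadjusted p under 0.05, and DESeq2 called 0 too. The slopes are therefore given as values that did not pass. The 113 genes are fewer than a share of 0.05 of those tested, so the p-values were not evenly spread. Places by p below are a description only.

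By unadjusted p, core clock genes stood at the first 3 places of all genes. Nfil3 had a slope of 0.65 (SE 0.14) per unit of log2 index, Ciart of -0.54 (SE 0.13) and Per3 of -0.45 (SE 0.11). Bhlhe41 (-0.37, SE 0.11), Tef (-0.31, SE 0.10) and Npas2 (0.43, SE 0.15) stood at places 6, 7 and 13, with the same signs as between the ends. Hlf at -0.18 (SE 0.13), which turned to 0.23 without the muscle-rich libraries, stood at place 1461 and Lonrf1 at -0.02 (SE 0.11) at place 13709. Among genes outside the clock lists, the smallest p among positive slopes belonged to Cdh24 (0.75, SE 0.19), a cadherin, Spon2 (0.63, SE 0.18) and Alox8 (2.28, SE 0.80), a lipoxygenase.

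**Figure D4:**
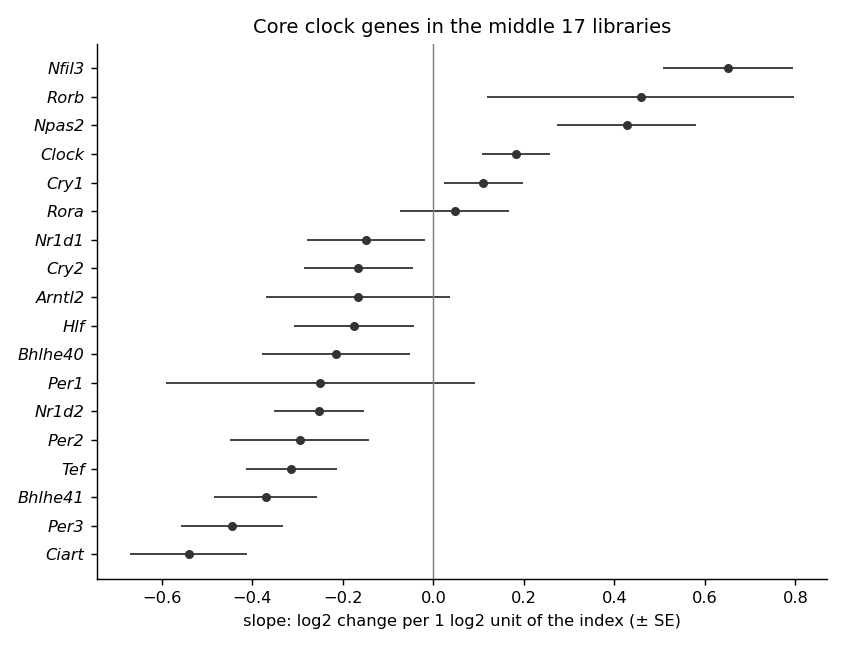
Slope of each of the 18 core clock genes on the index in the 17 middle libraries, in log2 change per log2 unit, with bars of ± 1 SE. Nfil3, Rorb, Npas2, Clock, Cry1 and Rora have slopes above 0 and the other 12 below, and none passed the adjusted test.

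The library of lowest index in the middle, silicon + NR replicate 4 at -2.31, was far from the other 16, which lay between -1.06 and 0.82. Without it the slope was 0.62 for Nfil3, -0.49 for Ciart, -0.54 for Per3, 0.49 for Npas2, -0.39 for Bhlhe41 and -0.21 for Tef.

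The labelled groups were then compared for the same genes, by edgeR's quasi-likelihood test over all libraries with groups and sex as terms. In GCR against mock, 2810 genes were called (16.6%, with 8.04% higher and 8.52% lower), among them 5 of the 18 core clock genes, 1 higher and 4 lower. Npas2 rose by 1.33 (SE 0.41, adjusted p = 0.0294), and Hlf (-1.28, SE 0.35, adjusted p = 0.0174), Nr1d1 (-1.07, SE 0.26, adjusted p = 0.0114), Nr1d2 (-0.85, SE 0.26, adjusted p = 0.0277) and Tef (-0.72, SE 0.25, adjusted p = 0.0443) fell. The share of core clock genes called, 5 of 18, stands beside 16.6% of all genes. The median over the core clock genes was -0.30, beside -0.06 over all genes. Of the 10 rhythmic genes, Tfrc (0.78, SE 0.18) and Lonrf3 (0.86, SE 0.25) rose and Tspan4 (-1.75, SE 0.47), Cys1 (-1.25, SE 0.34) and Tsc22d3 (-0.99, SE 0.29) fell. Of the 11 kinases, ligases and other regulators, Gsk3b (0.66, SE 0.20) and Csnk2a1 (0.59, SE 0.16) rose. For both lists the background is again the 16.6% of all genes called, so these are values of single genes and no result about a list.

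Levels by group show where the spread lay. Npas2 ranged from 2.93 to 27.7 CPM (median 11.8) in GCR and from 1.37 to 19.9 CPM (median 3.53) in mock, where the males held at most 3.95 CPM and the females 11.1 and 19.9 CPM. Hlf ranged from 4.24 to 14.8 CPM (median 9.41) in GCR and from 7.94 to 36.4 CPM (median 28.4) in mock, with females at 7.94 and 10.53 CPM. Nr1d1 ranged from 41.3 to 110 CPM (median 56.4) in GCR against 116 to 190 CPM (median 171) in mock, without overlap, with the mock females at 116 and 171 CPM. Tef ranged from 57.9 to 115 CPM (median 95.7) against 96.3 to 229 CPM (median 211). For Npas2, Hlf and Tef, the 2 mock females lay within the GCR range.

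The GCR calls rested on few libraries. Without the 4 libraries high in Rn45s, 3 of them GCR, neither a core clock gene (smallest adjusted p = 0.24) nor any other gene was called, although the changes were 1.29 for Npas2, -1.13 for Hlf, -0.91 for Nr1d1, -0.99 for Nr1d2 and -1.06 for Tef. Without the muscle-rich libraries none was called either (smallest adjusted p = 0.159), with Npas2 at 1.59 and Hlf at -1.005. That fit lost mock replicates 3, 4, 5 and 6 (Acta1 from 3409 to 23256 CPM) and kept all 7 GCR libraries (at most 48.5 CPM). Muscle content thus differed between these groups, and its part in the calls was not tested. Leaving out GCR replicate 2 left only Nr1d1 called, and leaving out mock replicate 3 or 5 left Hlf and Nr1d1. Without GCR replicate 6, Hlf, Npas2 and Nr1d1 remained called, and without mock replicate 1, Hlf, Nr1d1 and Nr1d2. Tef lost its call without any 1 of the 7 GCR libraries, without mock replicate 1, 2, 3 or 5, with no count filter, and in edgeR with RLE size factors in place of TMM (adjusted p = 0.0501). Over all genes, the 2810 calls fell to 502 without GCR replicate 2, 1821 without GCR replicate 1, 1128 without GCR replicate 5 and 1542 without GCR replicate 6. They fell to 1511, 1558 and 1398 without mock replicate 3, 5 and 6, and were 4084 without GCR replicate 4.

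**Figure D5:**
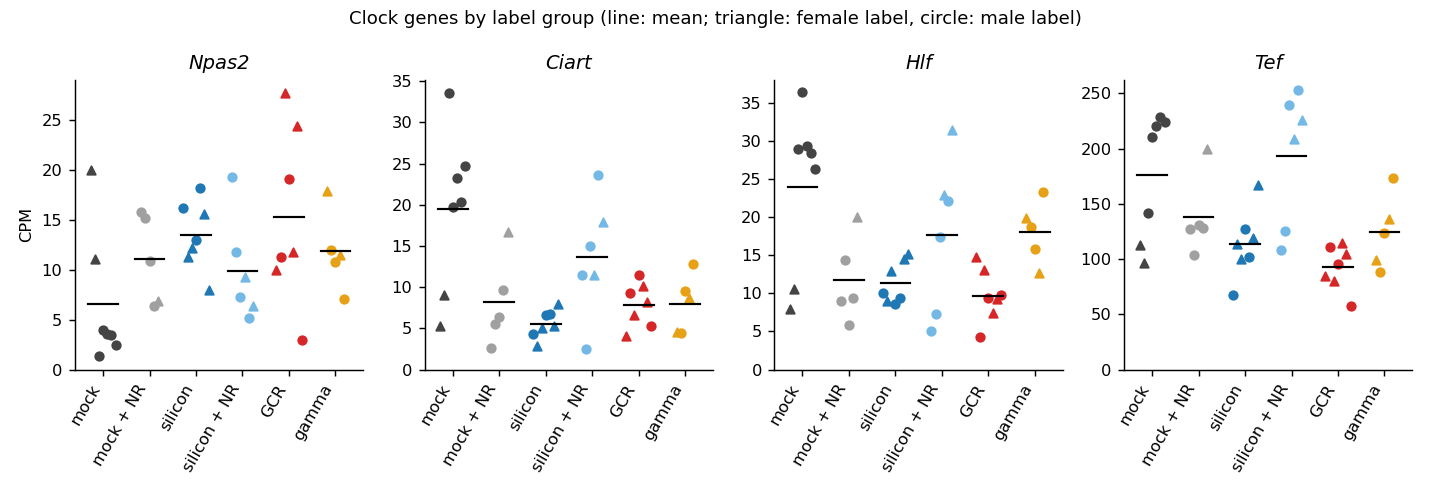
CPM of Npas2, Ciart, Hlf and Tef in each library by group, with triangles for female and circles for male labels and a line at the mean. In mock, the males and females lie apart in Npas2, Ciart, Hlf and Tef, and the GCR libraries of Hlf reach no higher than 14.8 CPM.

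In silicon against mock no gene was called by edgeR (0%, smallest adjusted p = 0.0897, 2183 genes with unadjusted p under 0.05), while DESeq2 called 425 genes, with Ciart and Hlf among them. Ciart ranged from 2.80 to 7.95 CPM (median 5.30) in silicon and from 5.31 to 33.6 CPM (median 20.4) in mock, a change of -1.73 (SE 0.42, adjusted p = 0.0897). The change of Hlf was -1.19 (SE 0.35, adjusted p = 0.111) and that of Npas2 1.15 (SE 0.42, adjusted p = 0.18). Leaving out mock replicate 6, the female of the Arntl-high end, brought Ciart, Hlf and Npas2 under the threshold, and leaving out mock replicate 3 brought Ciart alone. Over all genes, 307 were called without mock replicate 6 and 164 without mock replicate 3.

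Gamma against mock called 5 genes by edgeR (0.0295%), none of them core clock genes, with Ciart at -1.30 (SE 0.45, adjusted p = 0.296). Without any 1 of the 7 mock libraries it called 1 or 2 genes, without gamma replicate 1 or 5 it called 12, and without gamma replicate 2 it called 18. Mock + NR against mock called 0 (0%, 2875 genes with unadjusted p under 0.05, DESeq2 591), with Ciart at -1.20 (SE 0.45, adjusted p = 0.156) and Npas2 at 1.15 (SE 0.47, adjusted p = 0.186). Without mock replicate 6 it called 268. These comparisons and the silicon and GCR ones share the same 7 mock libraries. Silicon + NR against mock + NR called 0 (0%, 367 genes with unadjusted p under 0.05, DESeq2 1).

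Silicon + NR against silicon called 0 genes as well (0%, 2170 with unadjusted p under 0.05, DESeq2 353), and Per3 had the smallest adjusted p of all. Per3 ranged from 49.3 to 199 CPM (median 112) with NR and from 29.7 to 64.8 CPM (median 43.0) without, a change of 1.30 (SE 0.33, adjusted p = 0.0663), and DESeq2 called it. Leaving out silicon replicate 1 or 5 brought it under the threshold in edgeR too. Over all genes, 336, 249, 127 and 219 were called without silicon replicate 1, 2, 4 and 5. The silicon effect with NR minus that without NR, a contrast added after the data were seen, called 0 genes by edgeR (0%, 1687 with unadjusted p under 0.05). Its largest core clock values were 2.45 for Ciart (SE 0.62, adjusted p = 0.0849) and 1.73 for Hlf (SE 0.50, adjusted p = 0.107).

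Females against males over all groups called 10 genes by edgeR (0.0589%), none of them a core clock gene, with Npas2 at 0.43 (SE 0.27, adjusted p = 1). Within mock alone, a contrast added after the split had been seen and fitted with 12 means of group and sex, 7 genes were called (0.0412%). Npas2 was the 1 core clock gene, higher in the 2 females by 2.33 (SE 0.45, adjusted p = 0.0463), while Hlf at -1.84 (SE 0.43, adjusted p = 0.389) did not pass. The split had been seen in the index, which Npas2 follows, so this p is no independent test of a sex difference. A fit of the mock libraries alone called no core clock gene (smallest adjusted p = 0.114). The sex difference in mock minus that in silicon, GCR and gamma was 2.07 for Npas2 (SE 0.53) and -2.07 for Hlf (SE 0.48), and by edgeR 0 of 16975 genes passed (0%, 181 with unadjusted p under 0.05). Where gamma libraries were fitted, replicate 5 counted as female by its label, against its Xist and Ddx3y levels. Without it, females against males called 11 genes by edgeR (0.0648%), none of them a core clock gene. The difference of sex differences was not refitted without it.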

How the data were processed

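RNA from mouse lung was sequenced in 37 libraries, with cDNA from the SMART-seq v4 kit and Nextera XT libraries, which do not mark strand, per the labels' protocols. FastQC 0.11.4, MultiQC 1.12, Trimmomatic 0.36, STAR 2.5.2, HTSeq 0.13.5 and the build mm10 are named in the submitters' processing notes, without roles. The authors deposited raw read counts, whole numbers for 24421 gene symbols, of which 23376 matched GENCODE M21. Without strand, overlapping genes cannot be told apart, and without molecular identifiers counts are not independent molecules.

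CPM was the count divided by the library's total, times 1000000. Genes were tested with edgeR 4.0.16 in R 4.3.3 (TMM, quasi-likelihood, Benjamini-Hochberg adjusted p under 0.05) after filterByExpr by group left 16977 genes, 16975 without Arntl and Dbp. DESeq2 1.42.0, other scalings, filters, terms and left-out libraries were alternatives. Scripts were tested on simulated data. The ranking, the gene lists and the tests were chosen with earlier results of these data known. Named genes were all members of the clock, clock kinase and rhythmic lists, genes without overlap, up to 3 members of each other list with the largest differences, and the genes of smallest p in the middle. Cxcl5, Spon2 (between the ends) and Uts2 were named after their values were seen. An item that the clock lists first held is not reported here, and it was left out of all counts of those lists. Replicate numbers follow accession order and only name a mouse. Same-group libraries differed beyond counting noise (chi-square per degree of freedom at least 19.2), so none was counted as a copy. The sources do not state whether mice of a group were housed or dissected together. The p-values treat each mouse as independent, which could not be checked. A shared session cannot be told apart from the group or, within mock, from sex.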

Additional observations from a re-analysis of the deposited data

How the results depend on the processing

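Of the results tried gene by gene, 5 reversed direction under some alternative. Between the ends, Cry1 turned to 0.0358 with TMM library sizes, 0.00214 with 12 libraries per end, 0.16 with values centred on the groups, 0.0587 without high-Rn45s libraries and 0.13 without GCR libraries, and lay between -0.0926 and 0.0194 when single libraries were left out. Arntl2 turned to 0.14 and Bhlhe40 to 0.0149 without GCR libraries, and Rorb to 0.0477 when ranked by Npas2 over Nr1d1. In the middle, Hlf turned to 0.23 without muscle-rich libraries. None of the 6 genes without overlap reversed between the ends, nor did the other clock genes named in the label and middle comparisons under the alternatives run for them. The count of 6 genes without overlap became 15 with 8 libraries per end, 1 with values centred on the groups, 74 without muscle-rich libraries (6 per end) and 36 with males only (6 per end, added after the data were seen). Without mock libraries (8 per end, likewise added) it was again 6, of which 3 were shared. It lay between 6 and 11 when each of the 20 libraries was left out, with 11 without mock replicate 4. Fewer libraries per end allow more genes without overlap by construction. Under TMM library sizes it was 5, of which 2 (Hlf and Npas2) were shared, while Ciart, Tef, Bhlhe41 and Lonrf1 overlapped.

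The 5 core clock genes called in GCR against mock became 1 when only these groups were fitted, 0 without muscle-rich libraries, 0 without libraries high in Rn45s and 2 with males only, and 1 to 6 when single libraries were left out. The count of all genes called there fell from 2810 to 1080 with only these groups fitted, 640 with males only and 0 without either the muscle-rich or the high-Rn45s libraries, and lay between 502 and 4084 when single libraries were left out. In silicon against mock the 0 core clock genes called became 2 without muscle-rich libraries (Ciart and Rora), 2 with DESeq2, and 0 to 3 when single libraries were left out. In silicon + NR against silicon they became 1 with DESeq2 and 0 to 1 with single libraries left out, and in mock + NR against mock 0 to 1, with Npas2 called without mock replicate 6. For the slope on the index, 0 became 6 in a fit of all 37 libraries with groups and sex as terms, which changes libraries and terms together and holds the libraries that the index placed at the ends, so these calls are no test of the contrast. Over all genes, silicon against mock called 736 without muscle-rich libraries and 425 with DESeq2 in place of 0, mock + NR against mock 427 and 591 in place of 0 (5 with males only), silicon + NR against silicon 185 and 353 in place of 0, and gamma against mock 259 with DESeq2 and 0 without muscle-rich libraries in place of 5, or 12 when gamma replicate 5 was left out for its Xist and Ddx3y levels. Females against males called 2 without muscle-rich libraries in place of 10. The cause of these changes was not tested. The shallowest library was GCR replicate 6 with 9485197 counts, without which GCR against mock called 3 core clock genes. No paired analysis was possible because the labels carry no replicate numbers.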
